A study of Mus musculus with 2 samples.

Results

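The genes described here are 9 signals by which bone marrow stromal cells act on osteoclasts, the cells that resorb bone. They are Tnfsf11, Csf1, Il34, Tnfrsf11b, Sema3a, Efnb2, Ephb4, Ptgs2 and Pth1r. They were chosen by name for that role, and all 9 were found among the 25707 loci listed in the deposited files. RNA from mouse bone marrow mesenchymal stem/progenitor cells, which can form bone, fat and cartilage cells, was sequenced in 2 libraries. The mice were of the CD-1 strain and 3 months old, and cells from their marrow were grown in DMEM with fetal bovine serum. One library came from cells with a floxed Pparg gene (label PPAR-flox) and the other from cells without PPARg (label PPAR KO), the nuclear receptor that drives fat cell formation. The labels used here do not say which exons were floxed, how the gene was deleted, how many mice gave cells or for how long the cells were cultured.

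Osteoclasts form from blood cell precursors that need a pair of signals from stromal cells. CSF1, or IL34 through the same receptor CSF1R, keeps the precursors alive and dividing, and RANKL, encoded by Tnfsf11, makes them fuse and resorb bone through its receptor RANK. Osteoprotegerin, encoded by Tnfrsf11b, is a secreted decoy that binds RANKL and blocks it. Semaphorin 3A and the ephrin B2 and EphB4 pair are known to restrain osteoclast formation, whereas prostaglandin E2 made with COX-2, encoded by Ptgs2, and parathyroid hormone acting on PTH1R are known to raise RANKL in stromal cells.

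Values are FPKM, fragments scaled by transcript length and library total, summed over the transcripts of a gene. With 1 library per group no difference below has a replicate check, no test was possible and none of the values has an error between cultures. The deposited lower and upper bounds of a transcript describe the estimate within 1 library. Coverage over all transcripts came to 1383 megabases (floxed) and 1728 megabases (deficient), and how many fragments lie behind each value is unknown. Pparg itself was at 6.86 FPKM in the floxed and 1.39 FPKM in the deficient library. Genes were kept if they reached 1 FPKM in at least 1 library, which left 10748 genes or unnamed loci. Their median log2 fold of FPKM + 1, deficient over floxed, was 0.86 (1.81-fold). Folds called relative below are log2 folds, deficient over floxed, after that shift was subtracted, and a gene was called higher or lower at 2-fold. In RNA from a whole culture, fewer cells of a type and less RNA per cell cannot be told apart.

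The secreted inhibitors of osteoclast formation were lower in the deficient library, and Csf1 became the most abundant of the 9 signals. Tnfrsf11b led the order in the floxed library at 19.8 FPKM, followed by Sema3a at 12.7, Il34 at 5.77, Csf1 at 5.52 and Ptgs2 at 4.22 FPKM. In the deficient library the order was Csf1 at 19.7, Ptgs2 at 11.3, Il34 at 10.9, Tnfrsf11b at 9.56 and Sema3a at 5.74 FPKM. No spread between cultures is known, so neighbours in these orders, such as Il34 and Csf1 in the floxed library, cannot be ranked beyond error. A ratio of 2 genes within a library does not change with the scaling of that library. None of the ratios given here was planned. The ratio of Csf1 to Tnfrsf11b was 0.279 in the floxed and 2.06 in the deficient library, a 7.40-fold difference. Csf1 had the highest relative fold of the kept signals and Tnfrsf11b the next to lowest, so a large difference follows from the choice of this pair. The ratio of Csf1 to Il34 was 0.956 and 1.81, a 1.90-fold difference. The ratio of Sema3a to Tnfrsf11b was 0.641 and 0.601, so these inhibitors kept nearly the same proportion to each other.

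**Figure D1:**
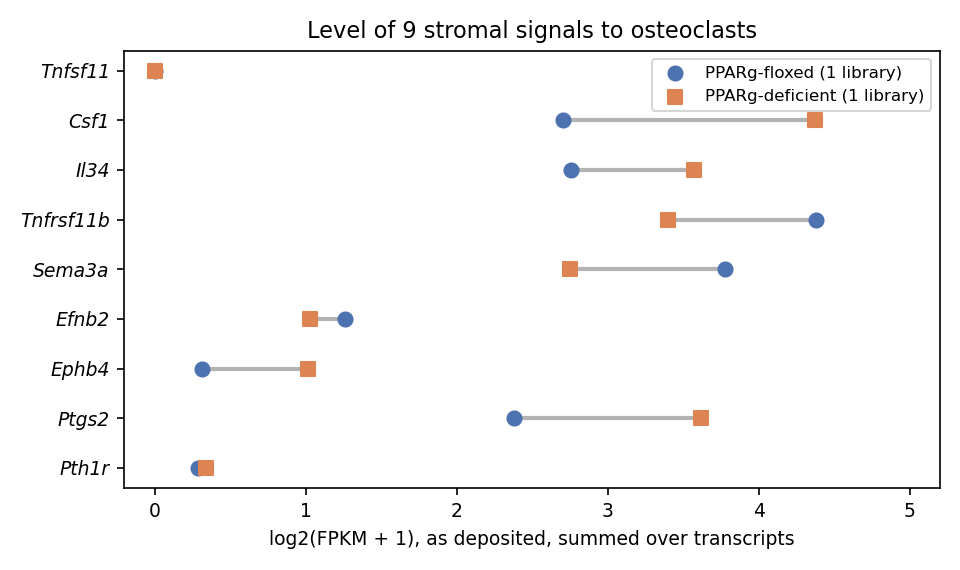
Level of each of the 9 genes as log2(FPKM + 1) in the PPARg-floxed library (circles) and the PPARg-deficient library (squares), 1 library each, with a grey line joining the values of a gene. Tnfrsf11b and Sema3a lie to the left in the deficient library, Csf1, Il34, Ptgs2 and Ephb4 to the right, and Tnfsf11 is listed at 0 in both.

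Of the 9 genes 7 passed the filter on low values, and Tnfsf11 and Pth1r did not. Ephb4 passed through the deficient library alone. Relative to the median gene, 3 were at least 2-fold lower (Tnfrsf11b, Sema3a and Efnb2) and 0 were higher, where 11.8% of all kept genes were lower and 10.3% higher. As deposited, without the shift, 1 was lower (Sema3a) and 2 were higher (Csf1 and Ptgs2), where 4.66% of kept genes were lower and 41.9% higher. Tnfrsf11b and Sema3a therefore lay on the lower side on both scales. A count of 2 higher genes among the 7 kept is not above that background share. The median relative fold of the 7 kept genes was -0.16, against 0 for all kept genes by construction.

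**Figure D2:**
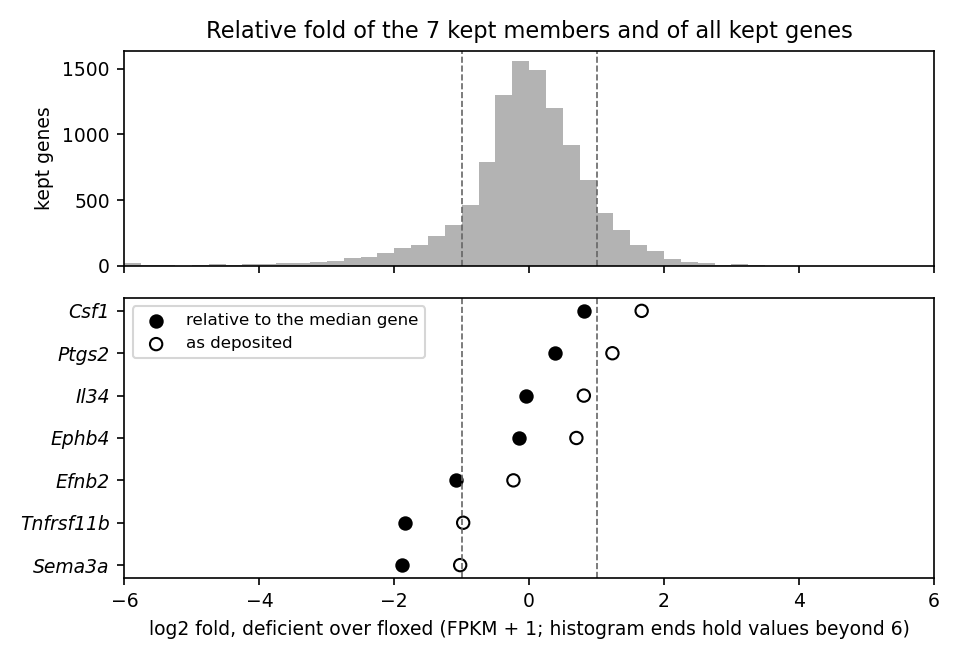
The upper panel counts all kept genes by log2 fold relative to the median gene, and the lower panel gives the 7 kept signals relative to the median gene (filled) and as deposited (open), with dashed lines at 2-fold. Sema3a (-1.88) and Tnfrsf11b (-1.83) lie in the lower tail, and Csf1 (0.81) is the highest of the 7.

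Tnfsf11, which encodes RANKL, was listed at 0 FPKM in both libraries. Its single transcript lay on chromosome 14 from 78677253 to 78707850 (mm9, minus strand, 5 exons) and matched the annotated transcript Tnfsf11-201 over its whole chain of introns. The upper bound was also listed at 0 in both, as for 8854 of the 25707 loci. Because some loci are listed at 0 in only 1 library while reaching 5 FPKM or more in the other (18 at 0 in the floxed and 15 at 0 in the deficient library), a value of 0 may come from an estimate that failed, so Tnfsf11 was not set against Tnfrsf11b as a ratio.

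Csf1, which encodes the growth factor of the macrophage and osteoclast lineage, had 5.52 FPKM in floxed cells and 19.7 FPKM in deficient cells. Its linear ratio was 3.57, its log2 fold was 1.67 as deposited and 0.81 relative to the median gene, and 85.5% of kept genes had a lower relative fold. The locus spanned 107543966 to 107563387 on chromosome 3 (mm9, minus strand) with 5 transcripts of 9 exons. The transcript of 2965 nt held most of the gain, from 2.61 FPKM (bounds 1.84 to 3.38) to 12.4 FPKM (10.7 to 14.1). Csf1-201, the longest at 4176 nt, had an upper bound of 0.056 FPKM in the floxed library and stood at 2.83 FPKM (2.09 to 3.56) in the deficient library. Csf1-203, of 2324 nt, was at 1.57 and 2.92 FPKM, and its bounds (0.94 to 2.20 and 1.98 to 3.85) overlapped.

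The Csf1 transcripts differ at exon 6, at the last exon and at the start. The share by exon 6 was nearly equal in both libraries, and the share by last exon was not. The long form of exon 6 (1016 nt) is known to give the secreted protein and the short form (131 nt) the membrane-bound protein. Transcripts with the short form held 71.5% of Csf1 FPKM in the floxed and 70.9% in the deficient library. Transcripts with the distal last exon held 47.3% and 77.1%. Their summed level was 2.61 and 15.2 FPKM, a relative fold of 1.31, and that of the proximal last exon was 2.91 and 4.51 FPKM (-0.36). In the distal class the transcript of 2965 nt, the only Csf1 transcript that starts at 107560025, held 2.61 and 12.4 FPKM. The share by last exon is therefore largely tied to the share by start. An unnamed locus of 2 exons on the opposite strand, from 107543833 to 107552026, lies over the distal last exon, and 1491 of its 1624 nt (91.8%) coincide with Csf1 exons. It was listed at 9.03 FPKM (7.17 to 10.9) in the floxed and 43.7 FPKM (39.6 to 47.7) in the deficient library. The handling of strand is not given in the sources used here, so reads of Csf1 and of this locus cannot be told apart. With that locus added, Csf1 was at 14.5 and 63.4 FPKM and its relative fold was 1.19, past 2-fold.

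**Figure D3:**
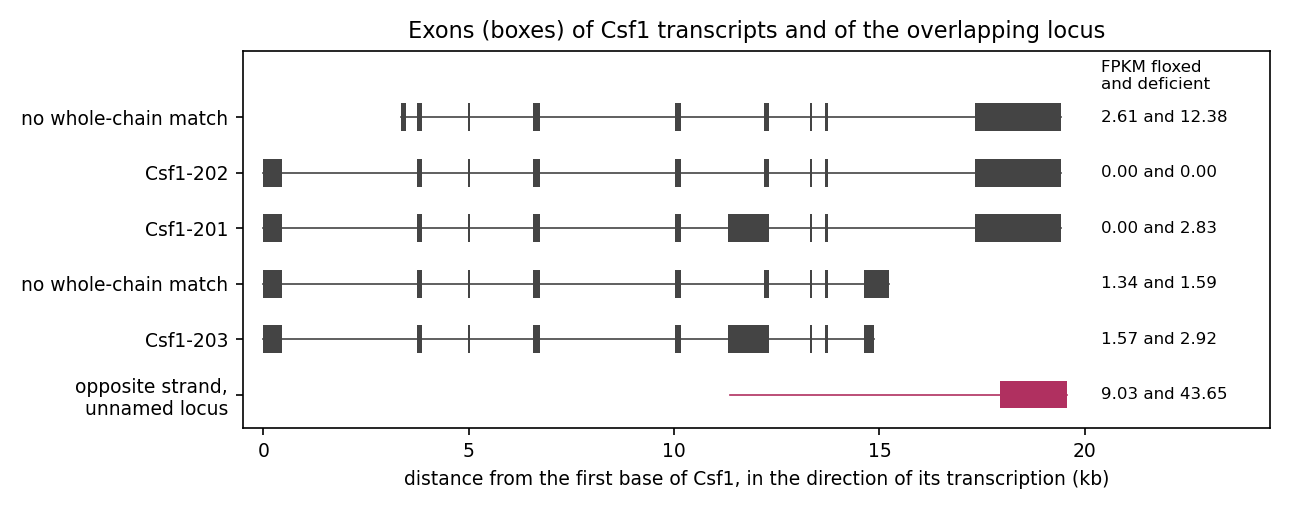
Exons (boxes) and introns (lines) of the 5 Csf1 transcripts and of the unnamed locus on the opposite strand, drawn to scale by distance in kb from the first base of Csf1 in its direction of transcription, with FPKM in the floxed and deficient library at the right. The opposite-strand locus lies over the distal last exon and was at 9.03 and 43.7 FPKM; its 9 nt exon near the middle of the gene is too short to be seen.

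Il34, which encodes the other ligand of CSF1R, was at 5.77 FPKM in the floxed and 10.9 FPKM in the deficient library. Its log2 fold was 0.81 as deposited and -0.05 relative to the median gene, which placed it near the median gene. It lay on chromosome 8 from 113265729 to 113329803 (mm9, minus strand) with 8 transcripts. Signal came from starts inside the gene, and the 3 transcripts that begin at the farthest start, Il34-201 and Il34-204 among them, were near 0 in both libraries. A transcript of 1808 nt went from 0.82 FPKM (0.17 to 1.46) to 6.30 FPKM (4.78 to 7.82), while one of 1663 nt stayed at 3.36 FPKM (1.88 to 4.84) and 4.30 FPKM (2.89 to 5.71). Transcripts with an extra exon of 118 nt held 27.6% of Il34 in the floxed and 2.62% in the deficient library, although the bounds of each of these transcripts overlapped between the libraries.

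Tnfrsf11b, the osteoprotegerin gene, was at 19.8 FPKM in the floxed and 9.56 FPKM in the deficient library, a linear ratio of 0.483. Its log2 fold was -0.98 as deposited and -1.83 relative to the median gene, and 4.73% of kept genes had a lower relative fold. It lay on chromosome 15 from 54082174 to 54110039 (mm9, minus strand). Nearly all signal was in Tnfrsf11b-201, of 5 exons, whose bounds were 18.0 to 21.6 and 8.31 to 10.8 FPKM and did not overlap. Summed coverage was 91.4 kilobases in the floxed and 44.8 kilobases in the deficient library, a difference close to that in FPKM. Coverage and FPKM rest on the same fragments, so this is not a separate check. Of the 41 genes listed for the TNF receptor and ligand superfamily, to which both Tnfsf11 and Tnfrsf11b belong, 10 were kept. Tnfrsf11b was the only one called lower, and 1 of 10 is not above the share over all kept genes (11.8%). The 3 called higher (10.3% of all kept genes) were all receptor genes. These were Fas, a death receptor gene (8.63 and 57.4 FPKM, relative fold 1.75), Eda2r (1.86 and 12.5 FPKM, 1.38) and Tnfrsf1a, the main TNF receptor gene (1.07 and 7.34 FPKM, 1.15). The list's median relative fold was 0.30, and as deposited 0 were lower and 6 higher (4.66% and 41.9% of all kept genes).

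Sema3a, which encodes a secreted guidance protein that acts through neuropilin 1 and A-type plexins, was at 12.7 FPKM in the floxed and 5.74 FPKM in the deficient library. Its log2 fold was -1.02 as deposited and -1.88 relative to the median gene, and 4.51% of kept genes had a lower relative fold. It spanned 13125538 to 13603726 on chromosome 5 (mm9, plus strand), with 6 transcripts of up to 19 exons. The lower level lay in transcripts with the downstream starts. The 4 transcripts that start between 13396784 and 13399309 summed to 11.4 and 2.44 FPKM, a relative fold of -2.70. Sema3a-201, the main one, went from 9.81 FPKM (8.92 to 10.7) to 2.43 FPKM (1.94 to 2.93), and Sema3a-204 from 1.57 FPKM (1.12 to 2.03) to 0.0058 FPKM with an upper bound of 0.040. The transcripts that start farther upstream summed to 1.32 and 3.30 FPKM. One of them starts at 13230418, 169 kb upstream of Sema3a-201, and went from an upper bound of 0.03 FPKM to 2.72 FPKM (2.20 to 3.24). The other starts at 13125538 and was at 1.32 FPKM (0.91 to 1.72) and 0.58 FPKM (0.32 to 0.85). The upstream starts held 10.4% of Sema3a FPKM in the floxed and 57.5% in the deficient library.

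**Figure D4:**
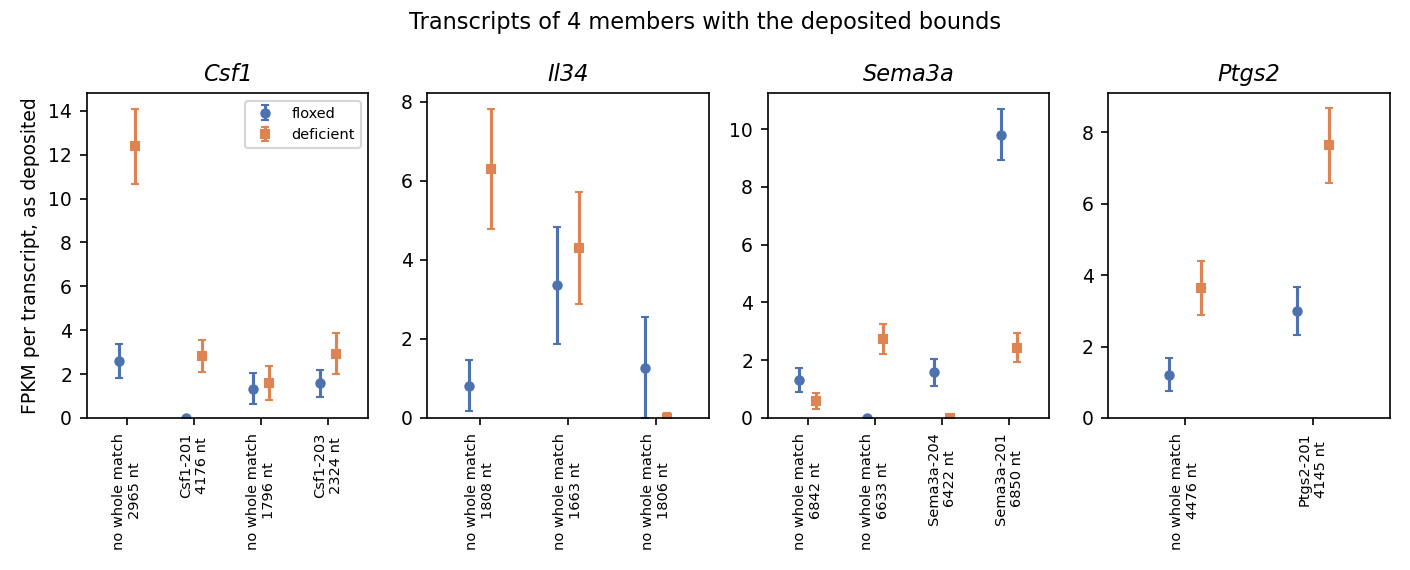
FPKM per transcript, as deposited, for transcripts of Csf1, Il34, Sema3a and Ptgs2 that reached 0.5 FPKM in at least 1 library, with the deposited lower and upper bounds as bars, floxed as circles and deficient as squares. The bounds of Sema3a-201 lie apart (8.92 to 10.7 and 1.94 to 2.93 FPKM), as do those of the Csf1 transcript of 2965 nt, with opposite directions.

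Of 31 genes listed as semaphorins, plexins and neuropilins, 9 were kept, with a median relative fold of -0.24 (as deposited, 1 lower and 1 higher). On the relative scale Sema3a and Plxna3, a plexin gene at 1.21 and 0.88 FPKM (-1.09), were called lower, and 0 were called higher. Plxna3 passed the filter through the floxed library alone. Over all kept genes 11.8% were lower and 10.3% higher (4.66% and 41.9% as deposited). Nrp1, which encodes a receptor of semaphorin 3A, was at 12.5 and 19.1 FPKM (-0.28). Sema3e was at 0.91 and 3.74 FPKM (0.45). In these cells Sema3a was the most abundant semaphorin gene of the list in both libraries.

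Efnb2, which encodes the ligand ephrin B2, and Ephb4, which encodes its receptor EphB4, were at low levels, under 1.5 FPKM in each library. The bounds of Efnb2 overlapped, with 1.39 FPKM (1.01 to 1.78) in the floxed library against 1.04 FPKM (0.71 to 1.37). Its relative fold of -1.09 lay just past the threshold. Ephb4 was at 0.24 and 1.02 FPKM, a linear ratio of 4.19. Its relative fold was -0.16, and the sign turned with the setting, to 0.57 with a pseudocount of 0.1, 0.34 with upper-quartile scaling and 0.28 with reference genes. Its major transcript had bounds of 0.08 to 0.41 and 0.69 to 1.35 FPKM, which do not overlap. Coverage behind Ephb4 was 1.47 and 6.72 kilobases, the least of the 7 kept genes in the floxed library. Of 22 ephrin and Eph receptor genes 6 were kept, 3 were called lower and 1 higher (11.8% and 10.3% of all kept genes). Their median relative fold was -0.65, and as deposited 2 were lower and 1 higher (4.66% and 41.9%). The ephrin genes with the highest levels were Efna5 and Efna1, while the other A-type ephrin genes were under 1 FPKM in both libraries. Efna5 was at 43.9 and 5.89 FPKM (-3.56) and Efna1 at 3.19 and 16.6 FPKM (1.22). Epha3, an A-type receptor gene, was at 2.88 and 0.21 FPKM (-2.54) and passed the filter through the floxed library alone.

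Ptgs2, which encodes the inducible cyclooxygenase COX-2, was at 4.22 FPKM in the floxed and 11.3 FPKM in the deficient library. Its log2 fold was 1.24 as deposited and 0.38 relative to the median gene. It lay on chromosome 1 from 151947103 to 151955438 (mm9, plus strand). Ptgs2-201 went from 3.00 FPKM (2.33 to 3.67) to 7.64 FPKM (6.59 to 8.69), and a transcript with 9 exons in place of 10 went from 1.22 to 3.64 FPKM. An unnamed locus on the opposite strand shares 3003 of its 3057 nt with Ptgs2 exons and was at 0.88 and 1.66 FPKM. Adding it left the relative fold of Ptgs2 at 0.34.

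The other prostaglandin genes did not move one way. Of 21 listed genes 11 were kept, 4 were called lower and 3 higher (11.8% and 10.3% of all kept genes). Their median relative fold was -0.04, and as deposited 2 were lower and 4 higher (4.66% and 41.9%). Ptgs1, the constitutive cyclooxygenase gene, was at 18.6 and 26.4 FPKM (-0.37), above Ptgs2 in both libraries. Pla2g4a, whose enzyme releases arachidonic acid from membranes, was at 29.3 and 52.5 FPKM (-0.04). Of the prostaglandin E synthases, Ptges was at 2.44 and 1.29 FPKM (-1.44) and Ptges3 at 196 and 157 FPKM (-1.18), whereas Ptges2 was at 0.25 and 1.47 FPKM (0.12). Hpgd, which encodes the enzyme that inactivates prostaglandins, was at 1.53 and 0.07 FPKM (-2.10), and Slco2a1, the gene of a prostaglandin uptake transporter, was at 0.65 and 5.90 FPKM (1.21). Cbr1, a carbonyl reductase gene, was at 4.15 and 29.7 FPKM (1.72). Ptgis, the prostacyclin synthase gene, reached 7.10 FPKM in deficient cells and was listed at 0 in floxed cells. The receptor gene Ptgfr was at 6.44 and 0.41 FPKM (-3.26). Of the called genes, Hpgd and Ptgfr passed the filter through the floxed library alone, and Ptgis and Slco2a1 through the deficient library alone. The counts of this list therefore rest partly on the filter.

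Pth1r, the receptor of parathyroid hormone, was at 0.22 and 0.26 FPKM and was not kept. The bounds of each of its 3 transcripts reached 0 in both libraries. Of 34 genes listed for the parathyroid hormone, cAMP and vitamin D pathways 19 were kept. On the relative scale 3 were called lower and 0 higher (11.8% and 10.3% of all kept genes), with a median relative fold of -0.26. As deposited 1 was lower and 3 higher (4.66% and 41.9%). The 3 called lower were Nr4a1 (2.73 and 0.56 FPKM, -2.11) and Nr4a2 (1.13 and 0.91 FPKM, -1.02), nuclear receptor genes induced by cAMP, and Rgs2 (2.60 and 0.91 FPKM, -1.77), a regulator of G protein signalling. All 3 passed the filter through the floxed library alone, so that count rests on the filter. Gnas, which encodes the stimulatory G protein that PTH1R couples to, was at 55.5 and 110 FPKM (0.12), and Vdr, the vitamin D receptor gene, at 0.77 and 1.65 FPKM (-0.28).

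Promoter sequences are shown for the pair of genes that were higher as deposited and for Tnfsf11, which was listed at 0. They are the 250 bases before the RefSeq start (GRCm38.p6, a later build than that of the files), 5′ to 3′, at chr3:107760470-107760719 (minus strand) for Csf1, chr1:150099781-150100030 (plus strand) for Ptgs2 and chr14:78308044-78308293 (minus strand) for Tnfsf11. These starts are those of Csf1-201, Ptgs2-201 and Tnfsf11-201. The Csf1 transcript of 2965 nt, which held most of the gain, starts elsewhere, at 107560025 in mm9 against 107563387 for Csf1-201, so the Csf1 window is not at its start. In the files Ptgs2-201 has a first exon of 152 nt against 245 nt in the annotation, so its start lies 93 bases downstream of the RefSeq start. Capitals mark an NF-kB motif and a pair of GC boxes in Csf1, a C/EBP motif in Ptgs2 and a TATA motif in reverse orientation in Tnfsf11.
Csf1: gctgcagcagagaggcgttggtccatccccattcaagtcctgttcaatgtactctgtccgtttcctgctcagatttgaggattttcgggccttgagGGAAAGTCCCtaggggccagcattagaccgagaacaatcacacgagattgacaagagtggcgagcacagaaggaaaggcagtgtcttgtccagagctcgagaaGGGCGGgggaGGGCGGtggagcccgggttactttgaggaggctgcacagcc
Ptgs2: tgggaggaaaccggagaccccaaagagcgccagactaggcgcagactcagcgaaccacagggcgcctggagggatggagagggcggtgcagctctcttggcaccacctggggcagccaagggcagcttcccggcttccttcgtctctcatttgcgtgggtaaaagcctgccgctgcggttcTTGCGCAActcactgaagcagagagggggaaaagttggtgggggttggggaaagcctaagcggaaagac
Tnfsf11: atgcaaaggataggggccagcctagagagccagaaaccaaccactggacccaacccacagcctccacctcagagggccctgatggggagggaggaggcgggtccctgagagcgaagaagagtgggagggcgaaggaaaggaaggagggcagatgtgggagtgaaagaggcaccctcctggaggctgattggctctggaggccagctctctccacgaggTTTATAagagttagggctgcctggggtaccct

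Motifs were searched on both strands in the promoters of 7 of the 9 genes, since the table used held none for 2 of them, Tnfrsf11b and Il34. The NF-kB motif, whose reverse complement is the first stretch of capitals in the Csf1 line, was found once in Csf1, from 154 to 145 bases before the start, and 0.14% of 32851 promoters of the same length held it. The C/EBP motif TTGCGCAA was found once in Ptgs2, from 69 to 62 bases before the RefSeq start (0.164% of promoters). That start lies 93 bases upstream of the start of Ptgs2-201 in the files, and those 93 bases were not searched. The TATA motif TATAAA was found only in reverse orientation, read as TTTATA, in Tnfsf11 from 32 to 27 bases before the start and in Efnb2 from 30 to 25 (12.4%, both strands). In the files Efnb2-201 has a first exon of 290 nt against 759 nt in the annotation. Its start there lies 469 bases downstream of the RefSeq start, so the Efnb2 window is not at it. The GC box GGGCGG was found in Csf1, Ptgs2, Efnb2, Ephb4 and Pth1r (32.7%). No match was found for the PPAR direct repeat (the half-site AGGTCA on both sides of any 1 base, 0.0335% of promoters). The cAMP response element TGACGTCA (1.55%), its contained half-site ACGTCA (6.47%), the E-box CACGTG (6.02%) and the AP-1 motif TGANTCA (6.75%) were not found in these windows either. The RUNX motif ACCACA was found in Ptgs2 and Sema3a (14.0%). The Sema3a window belongs to Sema3a-202, whose upper bound was 0.03 FPKM in both libraries, so it is not the start that carried the signal.

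Of 49 other stromal regulators of osteoclasts 48 were matched and 26 kept, and they split in both directions. On the relative scale 10 were called lower and 4 higher (11.8% and 10.3% of all kept genes), with a median relative fold of -0.58. As deposited 7 were lower and 9 higher (4.66% and 41.9%). Spp1, which encodes osteopontin and anchors osteoclasts to bone, was at 48577 and 234 FPKM (-8.55), Cthrc1, a secreted matrix protein gene, at 168 and 2.34 FPKM (-6.52), and Wnt5a, a ligand known to raise RANK on precursors, at 29.1 and 4.57 FPKM (-3.29). Sfrp1, a Wnt inhibitor gene, was at 10.7 and 0.67 FPKM (-3.67), and Ccl5, a chemokine gene, at 16.1 and 4.26 FPKM (-2.56). Angptl4, a known PPAR target gene, was at 1.95 and 0.44 FPKM (-1.89). The 4 called higher were Il11ra1, a subunit gene of the interleukin 11 receptor (0.51 and 6.98 FPKM, 1.55), Cxcl12, which encodes a chemokine that retains precursors in marrow (60.4 and 318 FPKM, 1.52), Bmp4 (9.32 and 46.9 FPKM, 1.36) and Il7 (0.05 and 3.72 FPKM, 1.31). The inflammatory ligand genes Tnf, Il1a and Il1b were listed at 0 in both libraries.

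Of 14 genes for proteases that release RANKL or CSF1 from the cell surface and for their partners and inhibitors, 9 were kept and all 9 lay within 2-fold of the median gene (4 were higher as deposited). Over all kept genes 22.1% lay beyond 2-fold on the relative scale and 41.9% were higher as deposited, so with 9 genes these counts do not set the list apart. Adam17, whose protease can shed both CSF1 and RANKL, was at 3.75 and 11.4 FPKM (0.52), Mmp14 at 4.60 and 12.0 FPKM (0.36), and Timp3, which encodes an inhibitor of ADAM17, at 217 and 737 FPKM (0.90).

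**Figure D5:**
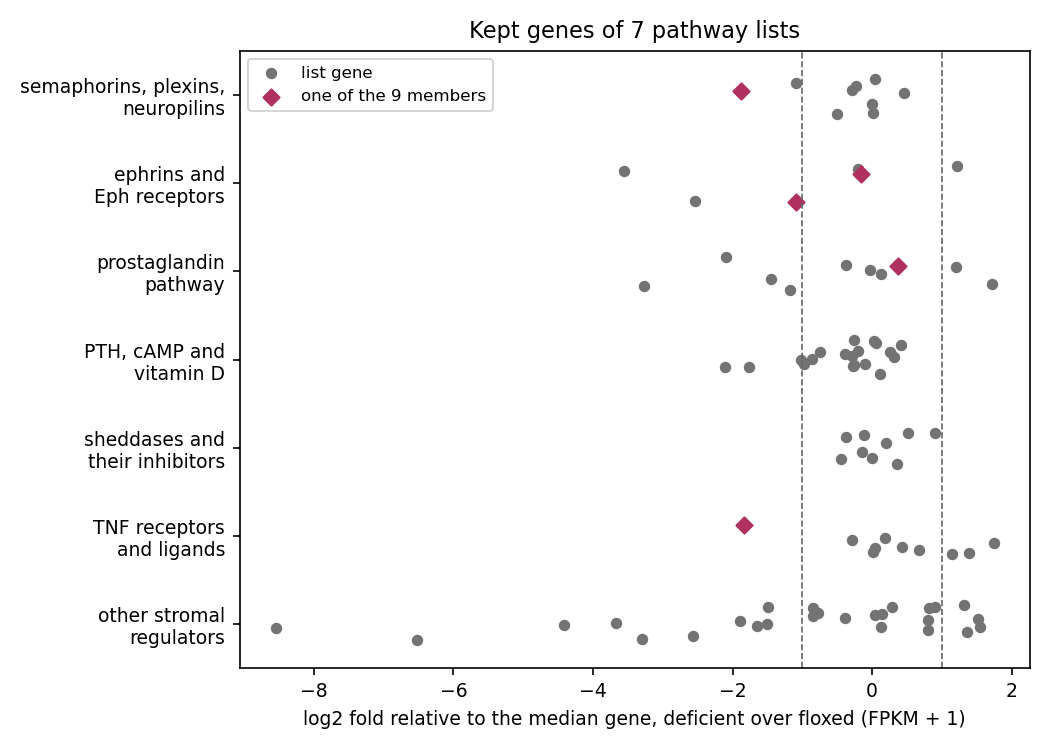
Log2 fold relative to the median gene for kept genes of 7 pathway lists, with diamonds for those of the 9 signals that a list holds and dashed lines at 2-fold. The sheddase list lies wholly between the lines, and the list of other stromal regulators reaches from -8.55 (Spp1) to 1.55 (Il11ra1); Ptgis is not drawn because it was listed at 0 in the floxed library.

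The receptors of these signals and markers of other cells were checked in the same libraries. Tnfrsf11a, the RANK gene, was listed at 0 in both, and Csf1r at 0 and 0.17 FPKM. The osteoclast genes Calcr, Dcstamp and Ocstamp were listed at 0 in both, while Ctsk (44.0 and 150 FPKM) and Acp5 (4.73 and 0.65 FPKM) were detected. Over the 15 osteoclast markers, summed FPKM was 57.6 and 165, most of it from Ctsk, with 8 under 1 FPKM in both. Of the 7 kept, 2 were called lower, Acp5 among them, and 0 higher (11.8% and 10.3% of all kept genes). The 2 called lower passed the filter through the floxed library alone, so that count rests on the filter. As deposited 2 were lower and 2 higher (4.66% and 41.9%). Of 17 matched monocyte and macrophage markers 14 were under 1 FPKM in both, Ptprc and Adgre1 were at 0, and Lyz2 was at 0.26 and 19.5 FPKM; their sum was 7.09 and 34.8 FPKM, and its part in the higher Csf1 and Ptgs2 was not tested. All 12 matched lymphocyte markers (sum 0.53 and 0.27 FPKM) and all 12 matched endothelial markers (0.10 and 0.28 FPKM) were under 1 FPKM in both, with Cd3e and Pecam1 listed at 0.

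Stromal markers were present in both libraries, with 13 of 15 kept and a summed level of 2542 and 3508 FPKM, although Thy1 and Eng stayed under 1 FPKM. Of the 13, 1 was called lower and 1, Vim (51.2 and 442 FPKM, 2.23), higher (11.8% and 10.3% of all kept genes). As deposited 0 were lower and 4 higher (4.66% and 41.9%). The matched markers of the bone-forming lineage that were kept were lower or within 2-fold of the median gene. Of 16 listed, 13 were matched, and Sp7 and the osteocalcin genes Bglap and Bglap2 were not. The 3 loci with transcripts that matched osteocalcin genes summed to 395 FPKM in the floxed and 0.79 FPKM in the deficient library, outside the counts below. Of 7 kept osteoblast and osteocyte markers 4 were called lower and 0 higher (11.8% and 10.3% of all kept genes). Their median relative fold was -1.30, and as deposited 3 were lower and 0 higher (4.66% and 41.9%). Of the 4 called lower, Alpl, Pdpn and Ibsp passed the filter through the floxed library alone, so that count rests partly on the filter. The call of Ibsp also rests on a listed 0, which may come from an estimate that failed. Alpl, the bone alkaline phosphatase gene, was at 7.49 and 0.14 FPKM (-3.76), Pdpn at 19.6 and 0.48 FPKM (-4.66) and Runx2, the lineage transcription factor gene, at 6.96 and 4.87 FPKM (-1.30), and Ibsp had 7.56 FPKM in floxed cells and was listed at 0 in deficient cells. The other members lay within 2-fold. The collagen genes Col1a1 (173 and 191 FPKM, -0.72) and Col1a2 (205 and 255 FPKM, -0.54), the most abundant of the matched genes, were slightly higher as deposited. Dlx5, at 1.47 and 1.24 FPKM, lay just inside the 2-fold limit on the relative scale (-0.14 as deposited). Runx2 was also within 2-fold as deposited (-0.44). The part of these markers in the lower Tnfrsf11b and Sema3a was not tested. Of 14 listed markers of marrow adipogenic stroma, a known source of CSF1 and RANKL in marrow, 11 were matched and 7 kept. Of the 7, 5 were called lower and 1, Cxcl12, higher (11.8% and 10.3% of all kept genes). As deposited 3 were lower and 2 higher (4.66% and 41.9%). Pparg itself was 1 of the 5, and Adipoq passed the filter through the floxed library alone. The lower genes included Lpl (176 and 2.78 FPKM, -6.41), Adipoq (9.87 and 0.10 FPKM, -4.16) and Kitl, the stem cell factor gene (22.6 and 12.6 FPKM, -1.65). Fabp4 (17.6 and 12.7 FPKM, -1.30) and Kitl were within 2-fold as deposited, and Ebf1 was higher as deposited (6.68 and 17.1 FPKM, 0.38).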

How the data were processed

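RNA from 2 cultures was analysed, 1 library per group, with groups from the genotype labels. The authors deposited 1 transcript file per library, in which an attribute text field of other content holds FPKM, its bounds and coverage, per the file lines. Per the submitters' processing notes, which give neither role nor order, the tools were TopHat2 2.0.5, Cufflinks 2.0.2 and Cuffdiff 2.0.2, on mm9. Annotation, filters and strand handling: not given in the sources used here. The files hold no gene symbols. Loci were named here by matching ordered intron and internal exon lengths to GENCODE M21 on the same chromosome and strand. A whole chain of at least 2 introns named 17681 loci, a run of 3 lengths 353 and one intron plus an end exon 958, and 0 of 35377 chains matched on a wrong chromosome. In 138 loci that matched several genes, each transcript took the gene it matched itself. No coordinate was converted.

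FPKM was summed per gene. A gene was kept when it reached 1 FPKM in either library and its longest transcript had 300 nt or more. A gene kept through 1 library alone leans towards a call in the direction of that library. Folds were taken on the log2(FPKM + 1) scale and the median of kept genes was subtracted, which understates changes of low genes. Because FPKM divides by the library total, an abundant gene such as Spp1 shifts all others. Genes listed at 0 in 1 library have no printed fold but stay in counts of called genes. Named genes are Pparg, the 9 members, up to 8 kept genes per pathway list with the largest relative fold, and from each marker list the first 3 and up to 4 with the highest FPKM. Named outside that rule, after their values were seen, were Bmp4, Il7, Il11ra1, Il1a, Il1b, Tnf, Tnfrsf11a, Thy1, Eng, Ptgs1, Ptges2, Pla2g4a, Gnas, Vdr and the osteocalcin loci. The members and lists were chosen with earlier results of these data known. The alternatives tried were a pseudocount of 0.1 or 5, filtering at 5 FPKM or not at all, no centring, TPM, upper-quartile scaling, centring on 17 reference genes, the most abundant transcript, transcripts of at least 300 nt, calls at 1.5- and 4-fold and calls with bounds apart. Adding overlapping opposite-strand loci was chosen after seeing the data. The scripts were tested on simulated data. Python 3.11.15, numpy 2.4.6, pandas 2.3.3 and matplotlib 3.10.9 were used.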

Additional observations from a re-analysis of the deposited data

Results flagged for a closer look

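Signal appeared outside the named genes in an unnamed locus on the opposite strand over the 3′ end of Csf1. It was listed at 43.7 FPKM in the deficient library and 9.03 FPKM in the floxed library, above the level of Csf1 itself in both (19.7 and 5.52 FPKM).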

How the results depend on the processing

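With 1 library per group no replicate could be left out. No paired analysis was possible because each group has 1 library. The ratio of Tnfsf11 to Tnfrsf11b, the only ratio planned, was not run, since Tnfsf11 was listed at 0. Against 3 lower and 0 higher members, 1 was lower as deposited and 0 at a 4-fold call. As deposited, with TPM, which was also not centred, and with no filter 2 were higher (Csf1 and Ptgs2). The median log2 fold of kept genes was 0.86, 0.86 and 0.83 in those settings, so they are not separate checks. With reference genes, the most abundant transcript, a 1.5-fold call or the opposite-strand loci 1 was higher (Csf1). Sema3a was called lower under every one of the 14 alternatives except the 4-fold call, and Tnfrsf11b under all except that and the values as deposited. Efnb2 lost its call under those 2 and when bounds had to lie apart, with reference genes, upper-quartile scaling, TPM, a pseudocount of 5, or filtering at 5 FPKM or not at all. Over the settings that give a fold, Sema3a ranged from -2.50 to -1.02, Tnfrsf11b from -2.18 to -0.98, Csf1 from 0.68 to 1.67, Ptgs2 from 0.26 to 1.24, Efnb2 from -1.53 to -0.23, Il34 from -0.57 to 0.81 and Ephb4 from -0.23 to 0.85. The depth limits Efnb2, Ephb4 and Pth1r most, and read counts behind them are unknown.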

Other observations

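An unnamed single-exon locus without a strand lies in an intron of Sema3a, on chromosome 5 from 13307590 to 13308425 (mm9), and shares 0 bases with Sema3a exons. It was at 2.09 FPKM (bounds 0.88 to 3.30) in floxed cells and 0.17 FPKM (0 to 0.51) in deficient cells, bounds that lie apart, as those of Sema3a-201 do (9.81 and 2.43 FPKM).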
